A study of Rattus norvegicus with 6 samples.

Results

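The cAMP signalling genes described here are 49 genes of the pathway from G proteins to CREB. They were chosen by name, with earlier results of these data known, and found as 49 of the 35362 gene rows of the deposited table. They comprise 4 G protein alpha subunits, 8 adenylyl cyclases, 14 phosphodiesterases, 8 genes of protein kinase A (PKA) subunits and inhibitors, 2 EPAC exchange factors, 3 anchoring proteins, 8 transcription factors and co-activators of the CREB pathway, and 2 salt-inducible kinases. The mRNA came from INS-1 cells, a rat insulinoma line used as a model of the insulin-secreting beta cell. In 3 libraries the cells overexpressed Flag-tagged menin S487D, in which an acidic residue replaces the serine, and in 3 libraries Flag-tagged menin S487A, in which an alanine that takes no phosphate replaces it. Both proteins were delivered by retroviruses of the same plasmid family, and the groups shared cell line, medium and passage range. The labels name no clone, so it is not known whether a group is a mixed population, and separate cultures within a group are not stated. P-values therefore measure only the spread between these samples. That spread may be technical, and the mutant cannot be told apart from the cell population that carries it. Cells with wild-type menin or no transgene were not analysed here.

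In this pathway, hormone receptors such as the GLP-1 receptor act through the stimulatory G protein alpha subunit (Gnas) on adenylyl cyclases, which make cyclic AMP, while inhibitory alpha subunits (Gnai) restrain them and phosphodiesterases break the product down. Cyclic AMP frees the catalytic subunits of PKA from their regulatory subunits and activates EPAC, and in beta cells both routes raise insulin secretion. PKA phosphorylates CREB family factors, which bind the cAMP response element (CRE) and recruit CRTC and p300/CBP co-activators. Salt-inducible kinases hold CRTC proteins outside the nucleus, and some CREB targets, such as Crem, Sik1 and certain phosphodiesterase genes, restrain the pathway in turn. The study's title concerns GLP-1 signalling and menin phosphorylation, and the comparison asks how these mRNAs differ between the mutants.

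Crem was the member whose promoter windows held the whole CRE, and its windows are shown because Crem also had the largest log2 change of the members tested. Windows of 300 bases (250 before to 50 after a transcript start, RefSeq, GRCr8) matched 36 of the 49 genes by symbol, with 51 windows in all. The letters searched were TGACGTCA, which reads the same on both strands, and its shorter form TGACG or CGTCA (both strands, outside any TGACGTCA). TGACGTCA occurred in 2 of the 51 windows, both of Crem, against 1.83% of 33469 RefSeq windows. Either form occurred in 20 of the 51 windows (39.2%), against 21.2% of all windows. The member windows were also richer in G and C, with a median of 65.7% against 51.7% over all windows. By gene, either form was present for 6 of 10 matched genes called higher, 3 of 6 called lower, 5 of 13 tested without a call and 2 of 7 not tested. These counts have no background by gene, and a gene with several windows has more chances of a match. A match describes letters and not bound sites, and the absence of one says only that the letters are not in that window. The 2 Crem windows below start downstream of its remaining window, which held only the shorter form. They are followed by windows of Sik1 and Pde10a, 2 other genes called higher, each with the shorter form in 2 places. The other Pde10a window held neither form. Such places were not particular to genes called higher. Windows of Akap11 and Sik2, both called lower, held 3 and 2 of them. A window of Creb1 held 3 and that of Prkaca 2, both genes without a call. Capitals mark TGACGTCA in Crem and TGACG or CGTCA in Sik1 and Pde10a, all 5′ to 3′ along the gene.
Crem, chr17:58984547-58984846 (GRCr8, plus strand): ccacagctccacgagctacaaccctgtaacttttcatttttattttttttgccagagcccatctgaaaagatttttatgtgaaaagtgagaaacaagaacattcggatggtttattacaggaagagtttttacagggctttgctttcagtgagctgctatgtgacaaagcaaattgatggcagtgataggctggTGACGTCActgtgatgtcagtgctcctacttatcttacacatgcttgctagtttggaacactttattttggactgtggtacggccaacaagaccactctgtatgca
Crem, chr17:58985240-58985539 (GRCr8, plus strand): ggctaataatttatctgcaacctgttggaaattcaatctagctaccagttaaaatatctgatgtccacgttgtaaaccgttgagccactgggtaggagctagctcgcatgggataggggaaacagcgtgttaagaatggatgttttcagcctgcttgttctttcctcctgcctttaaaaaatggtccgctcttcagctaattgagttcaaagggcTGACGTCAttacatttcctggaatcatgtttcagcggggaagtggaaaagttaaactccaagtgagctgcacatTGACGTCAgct
Sik1, chr20:9958597-9958896 (GRCr8, minus strand): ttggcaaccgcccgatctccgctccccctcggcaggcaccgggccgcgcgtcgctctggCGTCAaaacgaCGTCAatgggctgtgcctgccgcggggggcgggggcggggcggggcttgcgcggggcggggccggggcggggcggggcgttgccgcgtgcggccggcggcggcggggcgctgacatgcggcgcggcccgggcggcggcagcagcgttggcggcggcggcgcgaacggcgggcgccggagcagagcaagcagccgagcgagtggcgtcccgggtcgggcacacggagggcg
Pde10a, chr1:54765619-54765918 (GRCr8, minus strand): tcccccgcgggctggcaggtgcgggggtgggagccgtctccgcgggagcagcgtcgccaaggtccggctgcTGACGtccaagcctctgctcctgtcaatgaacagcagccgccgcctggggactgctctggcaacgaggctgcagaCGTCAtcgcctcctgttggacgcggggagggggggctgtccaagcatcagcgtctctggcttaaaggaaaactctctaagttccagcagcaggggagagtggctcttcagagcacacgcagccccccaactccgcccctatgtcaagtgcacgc
The motif began 56 bases before the start in the first Crem window shown, and 35 bases before and at base 40 in the second. The deposited table has a single row for Crem, so the values below cannot be divided among its starts.

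Levels are RPKM (reads scaled by gene length and by the reads of the library), given as mean ± SD over n = 3 libraries per group. Log2 changes are S487D minus S487A on log2(RPKM + 1), a scale that understates changes the more the lower the RPKM. Crem, at a few RPKM, was 2.31-fold on it and 2.84-fold by mean RPKM. Folds below are on this scale unless mean RPKM is named. A gene was tested where at least 3 libraries reached 1 RPKM, and called at a Benjamini-Hochberg adjusted p under 0.05 in limma over all 12527 genes tested. Reads assigned to listed genes numbered 9444801 to 10253573 in S487D libraries and 10037113 to 10867549 in S487A libraries. Men1, the gene of the transgene product, stood at 113, 103 and 119 RPKM in S487D and at 71.2, 76.7 and 75.0 RPKM in S487A (log2 change 0.58, limma adjusted p = 2.89e-05), a value that does not tell the mutant sequences apart. Of 10 beta cell markers, 9 were found and all 9 passed the filter, with summed levels of 17566 to 18745 RPKM in S487D and 5264 to 5812 RPKM in S487A, mostly Ins1. The 4 acinar markers, Sst, Ppy, Ptprc, Itgam, Cdh5 and Col3a1 were at 0 in every library, and the remaining delta cell, endothelial, immune and fibroblast markers stayed below the filter. Of the alpha cell markers, Gcg ranged over 783 to 864 RPKM in S487D and 91.6 to 104 RPKM in S487A. Duct markers summed to 80.8 to 84.7 RPKM in S487D and 208 to 226 RPKM in S487A, nearly all Krt7. The part of these differences in the results below was not tested. In bulk RNA, fewer cells of a type and less RNA per cell cannot be told apart.

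Of the 49 genes, 41 were tested and 8 stayed below the filter. In S487D, 11 of the 41 were called higher, 12 lower and 18 did not pass the test. The share called was 56.1%, against a background of 44.4% of all genes tested; 26.8% were higher against a background of 20.1%, and 29.3% lower against 24.3%. Over all genes, 45.3% of the calls were upward, or 55.4% under quantile normalization and 58.9% under median centring. The median log2 change of the 41 genes was 0.02, beside -0.01 for all genes tested. The groups did not overlap in 25 of the 41 (61.0%), including each of the 23 called, against a background of 54.6%. At 1.5-fold or more on the log2(RPKM + 1) scale, 8 of the 41 were called (19.5%), against a background of 8.25%. Of these, 5 genes were called higher (Crem, Pde10a, Pde1c, Sik1 and Adcy8), or 12.2% against a background of 2.05%. At the same size, 3 were called lower (Pkib, Atf1 and Pde3b), or 7.32%, near the background of 6.2%. Because the members were chosen with earlier results of these data known, shares above a background are no independent support for an excess. The other 15 calls were smaller. No tested member had all 3 libraries of either group below 1 RPKM. Adcy8, called higher, and Adcy5, without a call, reached 1 RPKM in 3 S487D libraries but in only 2 S487A libraries. The S487A libraries alone would not have met the filter for these genes, so the Adcy8 call is no support for the share of large rises. Another gene row shares part of the span of 15 of the 49 genes (7 of the 23 called), and since the library kit does not mark strand, reads of a shared span cannot be told apart.

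**Figure D1:**
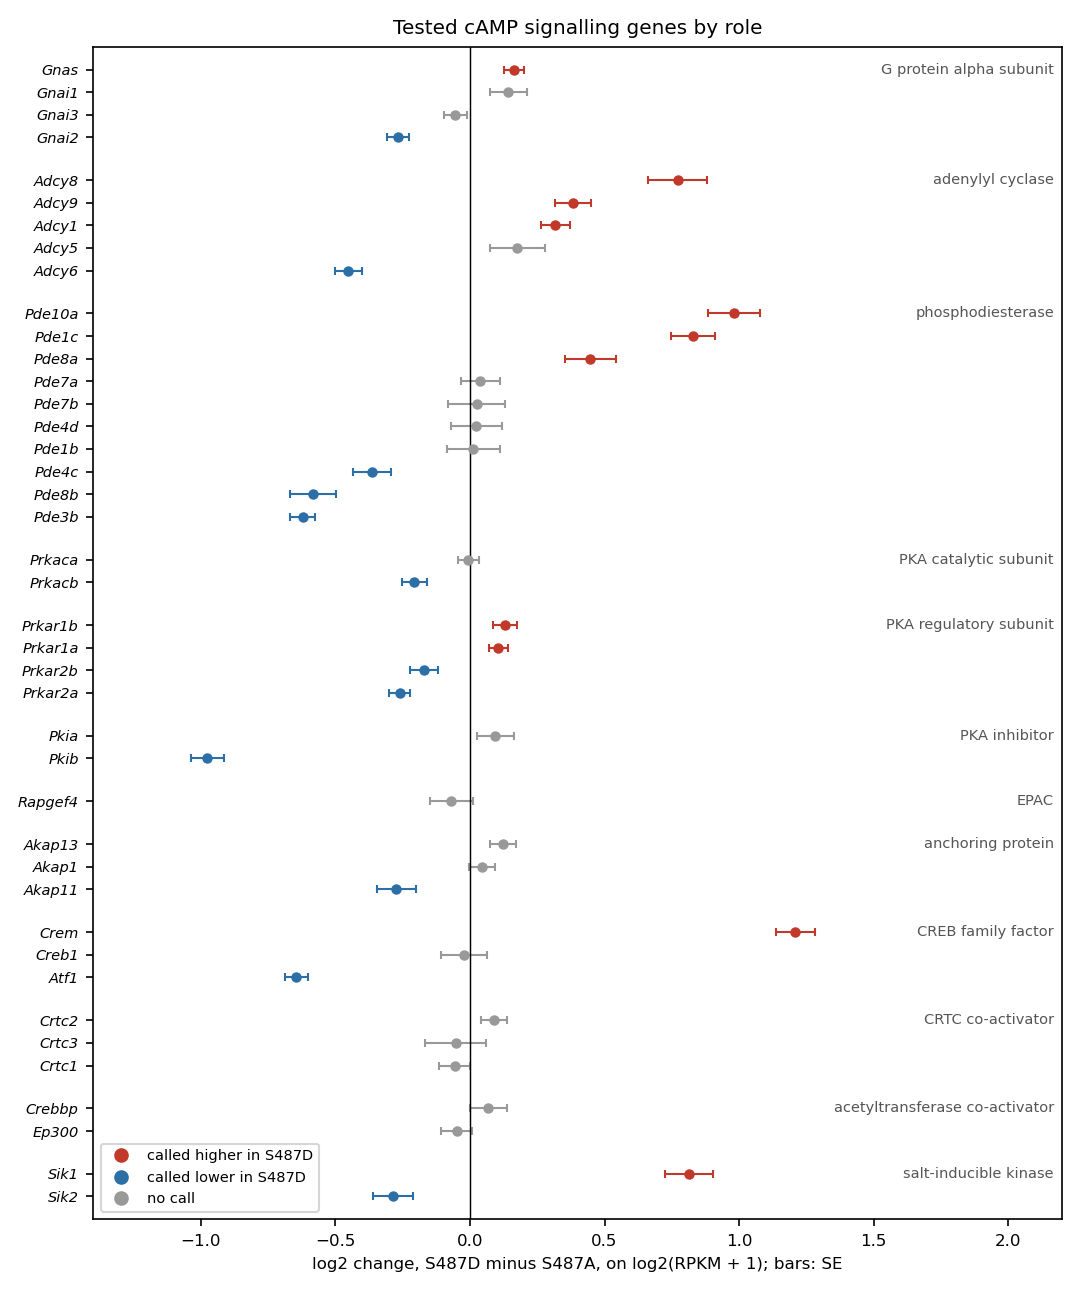
Log2 change (S487D minus S487A, on log2(RPKM + 1)) of the 41 tested cAMP signalling genes by role, with SE bars; red marks genes called higher in S487D, blue those called lower and grey those without a call. Crem lies farthest right at 1.21 and Pkib farthest left at -0.98, and within cyclases, phosphodiesterases and PKA regulatory subunits calls go both ways.

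At the entry of the pathway, the stimulatory subunit gene was slightly higher in S487D and the most abundant inhibitory one lower. Gnas stood at 748, 737 and 736 RPKM in S487D and at 646, 668 and 668 RPKM in S487A, a 1.12-fold rise. Gnai2, the most abundant of the 3 inhibitory alpha subunit genes, stood at 292, 296 and 304 RPKM in S487D and at 343, 366 and 365 RPKM in S487A, and fell 1.20-fold. Neither pair of groups overlapped. Gnai3 averaged 66.3 ± 0.61 RPKM in S487D and 68.9 ± 3.2 RPKM in S487A, and Gnai1 11.7 ± 0.013 and 10.5 ± 1.1 RPKM in S487D and S487A, without a call. Within a library, Gnas RPKM per summed RPKM of the 3 Gnai genes averaged 1.97 ± 0.046 in S487D and 1.51 ± 0.010 in S487A. The groups stood apart in this ratio, which does not depend on library scaling. It was chosen after the values were seen and carries no test. Since it sets a gene called higher over a sum that is mostly Gnai2, called lower, it adds no support to those calls. Quantile normalization removed the Gnas call (log2 change 0.015; limma adjusted p 0.716, the highest of 15 alternatives, with 2.96e-06 the lowest), whereas Gnai2 kept its call. The Gnas row shares its strand and 6650 bases of its span with the row LOC103692002, which averaged 52.7 ± 2.0 RPKM in S487D and 87.5 ± 1.5 RPKM in S487A, and how reads of the shared span were assigned was not tested.

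The cyclase genes changed in make-up while their sum did not separate the groups. Adcy6, a cyclase inhibited by calcium and the most abundant one, fell, and Adcy1 and Adcy8, both stimulated by calcium and calmodulin, rose together with Adcy9. Adcy8 stood at 2.50, 2.59 and 2.09 RPKM in S487D and at 1.15, 1.06 and 0.761 RPKM in S487A (log2 change 0.77, SE 0.109, limma adjusted p = 4.00e-04). Its mean RPKM in S487D was 2.42 times that in S487A, from at most 131 reads per S487D library and at most 59 reads per S487A library. Each S487D library lay above each S487A library. Adcy1 stood at 23.3, 21.4 and 23.7 RPKM in S487D and at 18.1, 18.7 and 17.5 RPKM in S487A. Adcy9, a widely expressed cyclase gene, stood at 6.69, 6.75 and 6.75 RPKM in S487D and at 5.01, 5.19 and 4.61 RPKM in S487A. Both rose, by 1.25-fold and 1.30-fold. Adcy6 fell 1.37-fold, with 25.6, 24.4 and 27.5 RPKM in S487D and 35.5, 35.8 and 35.7 RPKM in S487A. It lies on chromosome 7 among genes that were mostly lower in S487D: of its 50 nearest tested genes, 44 were called lower, and their median log2 change was -0.52 against -0.45 for Adcy6 itself.

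Adcy5, the other cyclase inhibited by calcium, averaged 1.24 ± 0.11 RPKM in S487D and 0.985 ± 0.15 RPKM in S487A without a call (adjusted p = 0.192), though the groups did not overlap. Adcy3 stayed below 1 RPKM in every library, and Adcy2 and Adcy7 had at most 4 reads in any library. Summed over the 8 genes, cyclase RPKM was 60.0, 57.1 and 62.1 in S487D and 61.6, 62.7 and 60.1 in S487A, and the groups overlapped. Adcy6 made up 42.7, 42.7 and 44.2% of this sum in S487D and 57.6, 57.1 and 59.5% in S487A. The calcium-stimulated genes Adcy1, Adcy3 and Adcy8 together made up 43.8, 43.3 and 42.7% in S487D and 32.2, 32.8 and 31.4% in S487A. In S487A the order was thus Adcy6 clearly above Adcy1, while in S487D the calcium-stimulated and calcium-inhibited genes held nearly equal shares (43.3 ± 0.56% and 45.3 ± 0.73%). These sums and shares, and the sums, shares and ratios below, were chosen after the values were seen and carry no test.

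**Figure D2:**
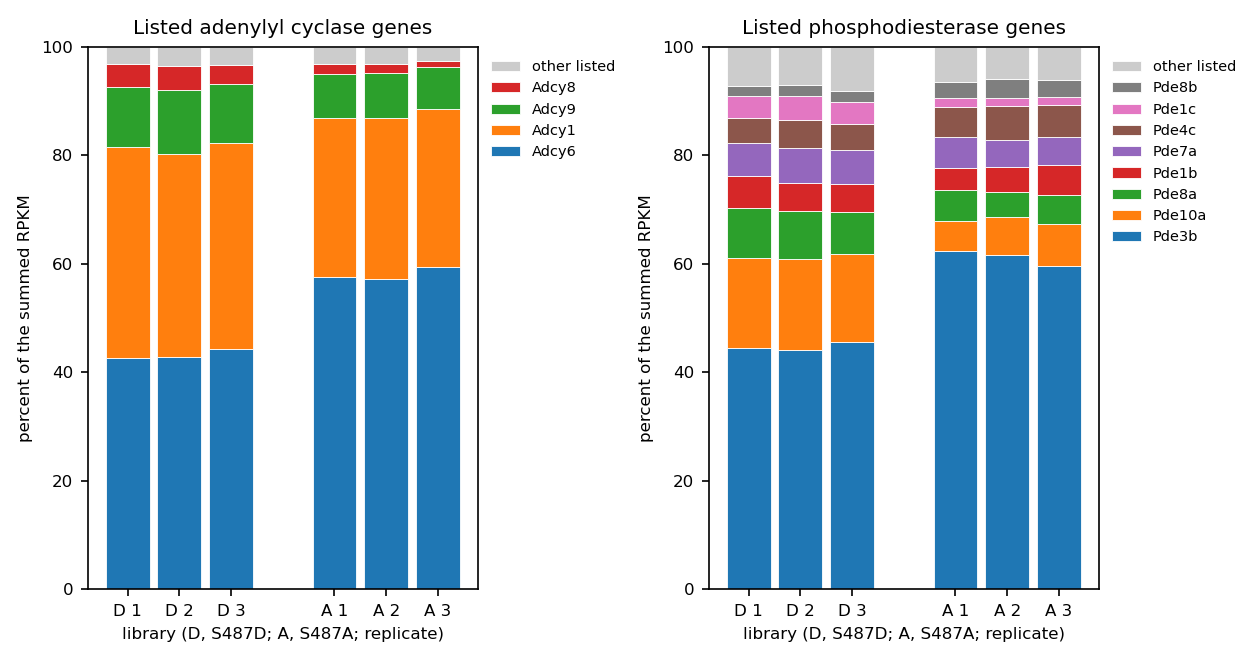
Share of each gene in the summed RPKM of the listed cyclase genes (left) and phosphodiesterase genes (right), in percent, for each S487D library (D) and each S487A library (A), with the other listed genes pooled in grey. The pooled genes are not strictly the least abundant, since Pde4d is among them and Pde8b is shown. Adcy6 holds 42.7 to 44.2% in S487D and 57.1 to 59.5% in S487A, and Pde3b 44.0 to 45.5% in S487D and 59.5 to 62.4% in S487A.

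Among the phosphodiesterase genes, Pde10a, Pde1c and Pde8a rose and Pde3b, Pde8b and Pde4c fell. Pde10a, which encodes an enzyme that hydrolyses both cyclic AMP and cyclic GMP, stood at 11.8, 11.1 and 11.2 RPKM in S487D and at 4.34, 5.55 and 6.03 RPKM in S487A (log2 change 0.98, SE 0.096, limma adjusted p = 3.66e-05). Pde1c, a calcium- and calmodulin-stimulated enzyme gene, stood at 2.87, 2.91 and 2.85 RPKM in S487D and at 1.19, 1.12 and 1.24 RPKM in S487A (log2 change 0.83, SE 0.081, adjusted p = 3.49e-05). The ratio of mean RPKM was 2.14 for Pde10a and 2.43 for Pde1c, and for both the S487D libraries lay well above the S487A libraries. Pde3b, which encodes the cGMP-inhibited enzyme known for limiting cyclic AMP in beta cells, stood at 31.4, 29.2 and 31.3 RPKM in S487D and at 49.01, 47.8 and 46.2 RPKM in S487A (log2 change -0.62, SE 0.046, adjusted p = 6.02e-06). It was the most abundant of the 14 in both groups, and its groups stood apart.

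The high-affinity, cyclic AMP-specific Pde8 pair split. Pde8a stood at 6.53, 5.93 and 5.38 RPKM in S487D and at 4.53, 3.54 and 4.23 RPKM in S487A. Pde8b stood at 1.26, 1.36 and 1.34 RPKM in S487D and at 2.44, 2.68 and 2.32 RPKM in S487A. This was a fall just short of 1.5-fold on the log2(RPKM + 1) scale, so Pde8b is not counted among the large falls. By mean RPKM, S487A stood at 1.88 times S487D. Pde8a rose 1.36-fold, and for each gene the groups did not overlap. Pde4c, of the cyclic AMP-specific family blocked by rolipram, stood at 3.28, 3.43 and 3.32 RPKM in S487D and at 4.38, 4.84 and 4.53 RPKM in S487A, and fell 1.29-fold. Pde1b, Pde4d, Pde7a and Pde7b did not pass the test, with log2 changes of 0.01, 0.02, 0.04 and 0.02. Pde1b averaged 3.70 ± 0.39 RPKM in S487D and 3.66 ± 0.49 RPKM in S487A. It lies near the end of chromosome 7, where the 27 nearest tested genes had a median log2 change of -0.46.

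Of the 4 phosphodiesterase genes below the filter, Pde1a and Pde4a reached at most 1.23 RPKM. Pde3a had 22, 16 and 11 reads in S487D and 6, 6 and 4 reads in S487A, or 0.207 ± 0.061 RPKM in S487D and 0.0637 ± 0.014 RPKM in S487A. Pde4b, a CREB-responsive gene in other cells, had 9, 24 and 29 reads in S487D and 4, 8 and 10 reads in S487A, and its groups overlapped. The summed phosphodiesterase RPKM was 70.6, 66.3 and 68.8 in S487D and 78.6, 77.6 and 77.5 in S487A, lower in every S487D library. Pde10a held 16.7, 16.8 and 16.3% of the sum in S487D and 5.52, 7.15 and 7.78% in S487A. The Pde4 family share, 9.13 ± 0.78% in S487D and 9.18 ± 0.29% in S487A, overlapped between the groups.

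**Figure D3:**
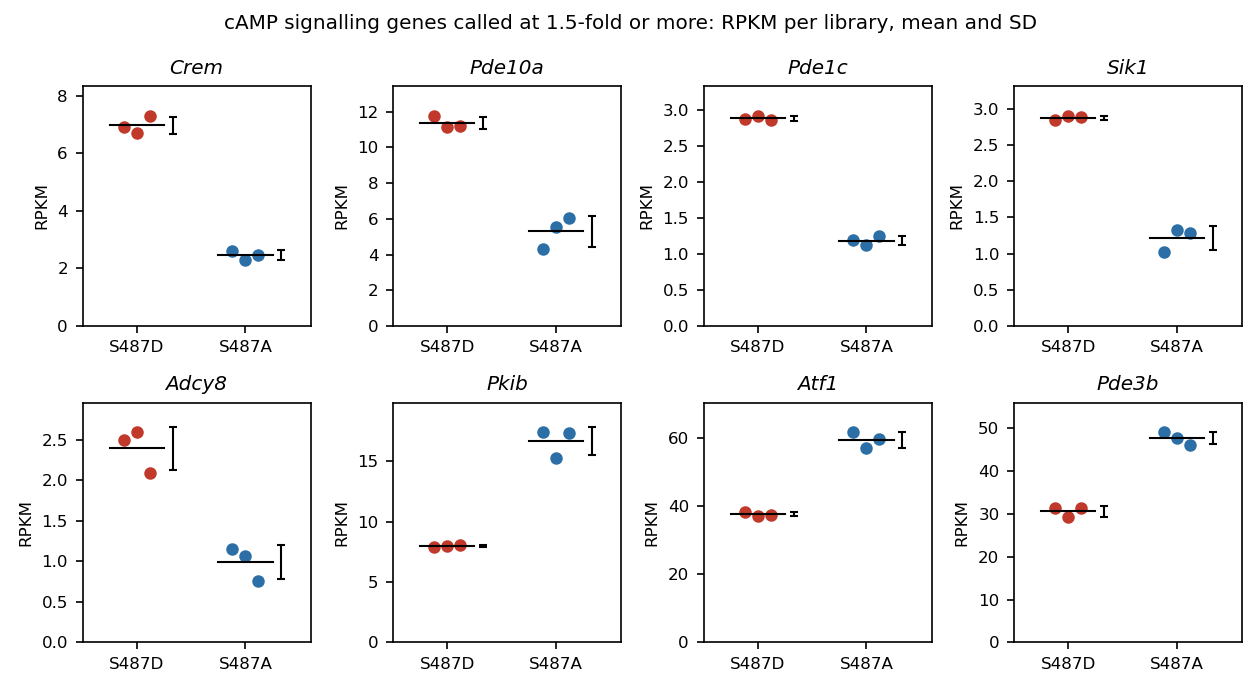
RPKM in each library (points), mean (line) and SD (bar beside the points; n = 3 per group) for the 8 genes called at 1.5-fold or more, with S487D in red and S487A in blue; each axis starts at 0. In all 8 panels the groups stand apart, as for Crem with 6.72 to 7.30 RPKM in S487D and 2.28 to 2.62 RPKM in S487A.

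The PKA genes shifted modestly between isoforms. The catalytic subunit gene Prkaca averaged 68.2 ± 2.0 RPKM in S487D and 68.5 ± 1.2 RPKM in S487A without a call, and Prkacb stood at 29.7, 27.9 and 28.7 RPKM in S487D and at 34.9, 32.5 and 32.9 RPKM in S487A, a 1.15-fold fall. Of the type II regulatory subunits, which bind anchoring proteins tightly, Prkar2a stood at 34.7, 34.1 and 33.7 RPKM in S487D and at 40.2, 41.6 and 41.6 RPKM in S487A. Prkar2a fell 1.20-fold and its groups stood apart. Prkar2b stood at 18.1, 16.9 and 16.6 RPKM in S487D and at 19.9, 18.7 and 19.8 RPKM in S487A (adjusted p = 0.0257). The type I genes were called higher, with a sign of Prkar1a that turned under quantile normalization. Prkar1a stood at 227, 218 and 226 RPKM in S487D and at 209, 208 and 207 RPKM in S487A (adjusted p = 0.0352). Prkar1b stood at 77.8, 73.3 and 79.2 RPKM in S487D and at 72.2, 68.6 and 69.4 RPKM in S487A (adjusted p = 0.0354). The type I to type II ratio of summed RPKM was 5.78, 5.72 and 6.07 in S487D and 4.67, 4.59 and 4.50 in S487A, and this within-library ratio separated the groups.

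Of these 4 regulatory subunit genes, Prkar2a kept its call in each of 15 alternatives, and the other 3 lay near the threshold. Prkar1a was not called with the replicate block (adjusted p = 0.0943), with no filter on low values (0.0516) or with no intensity trend (0.0983), and its change was -0.02 under quantile normalization (0.742). It also lost its call without S487A replicate 1 (adjusted p = 0.0554), 2 (0.0844) or 3 (0.0677) or S487D replicate 1 (0.128) or 3 (0.101), within a range of 0.00316 to 0.742. Prkar1b lost its call without S487A replicate 2 (0.104) or 3 (0.0862) or S487D replicate 1 (0.107) or 3 (0.117), with no filter (0.0571), with quantile normalization (0.102) and with no trend (0.0808), within a range of 0.00359 to 0.117. Prkar2b lost its call without S487A replicate 1 (0.0688) or 3 (0.0788) or S487D replicate 2 (0.0707) or 3 (0.0836) and with median centring (0.0827), within a range of 0.0202 to 0.0836.

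Pkib, which encodes a pseudosubstrate inhibitor that blocks the free catalytic subunit, had the largest fall of the members tested. It stood at 7.92, 7.95 and 8.04 RPKM in S487D and at 17.4, 15.3 and 17.3 RPKM in S487A (log2 change -0.98, SE 0.062, limma adjusted p = 2.14e-06). Its relative Pkia averaged 16.9 ± 1.5 RPKM in S487D and 15.8 ± 0.85 RPKM in S487A without a call. Summed PKA inhibitor RPKM per catalytic subunit RPKM was 0.270, 0.251 and 0.248 in S487D and 0.333, 0.301 and 0.321 in S487A, lower in every S487D library. Pkib lies on chromosome 20 (40616943 to 40712598, rn6) in a region of lowered genes: 42 of its 50 nearest tested genes were called lower, with a median log2 change of -0.52. Set against these neighbours, the fall of Pkib was larger by 0.45 on the log2 scale.

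EPAC and most anchoring genes did not pass the test. Rapgef4 (EPAC2), the granule-associated form of beta cells, averaged 2.19 ± 0.096 RPKM in S487D and 2.35 ± 0.10 RPKM in S487A (adjusted p = 0.506), and Rapgef3 (EPAC1) had at most 14 reads in any library. Akap1, which anchors PKA at mitochondria, averaged 21.6 ± 0.68 RPKM in S487D and 20.9 ± 0.58 RPKM in S487A. Akap13, which encodes another anchoring protein, had 17.7, 17.4 and 17.8 RPKM in S487D and 15.7, 16.6 and 16.0 RPKM in S487A, apart but without a call (adjusted p = 0.0625). Akap11, which binds type I regulatory subunits, fell 1.21-fold, with 4.06, 3.98 and 4.35 RPKM in S487D and 5.64, 5.07 and 4.91 RPKM in S487A. Quantile normalization removed its call (adjusted p 0.0743, the highest of 14 alternatives, with 1.35e-04 the lowest).

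In the CREB family, Crem rose, Atf1 fell and Creb1 did not pass the test. Crem, which encodes both activators and the cyclic AMP-induced repressor ICER, on chromosome 17 (57021704 to 57090888, rn6), stood at 6.93, 6.72 and 7.30 RPKM in S487D and at 2.62, 2.28 and 2.47 RPKM in S487A (log2 change 1.21, SE 0.073, limma adjusted p = 1.66e-06). Its mean RPKM in S487D was 2.84 times that in S487A, from 463 to 514 reads in S487D and 179 to 190 reads in S487A, and its windows hold the CRE letters printed above. Atf1, an activator close to CREB, stood at 38.3, 37.2 and 37.4 RPKM in S487D and at 61.6, 57.0 and 59.8 RPKM in S487A (log2 change -0.65, SE 0.043, adjusted p = 3.10e-06). Both pairs of groups stood apart. Creb1 stood at 2.60, 2.49 and 2.74 RPKM in S487D and at 2.98, 2.50 and 2.54 RPKM in S487A (log2 change -0.02, SE 0.085, adjusted p = 0.847), and its change was positive under quantile normalization (0.10) and median centring (0.03). Atf1 was the most abundant of the 3 in both groups, with 80.1, 80.2 and 78.9% of their summed RPKM in S487D and 91.7, 92.3 and 92.3% in S487A. Crem held 14.5, 14.5 and 15.4% in S487D and 3.89, 3.69 and 3.81% in S487A. Atf1 lies on chromosome 7, where 47 of its 50 nearest tested genes were called lower with a median log2 change of -0.57, so its fall differed from theirs by 0.08.

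No co-activator gene passed the test. Crtc1 ranged over 17.1 to 19.7 RPKM in S487D and 18.5 to 19.3 RPKM in S487A. Crtc2, the form most studied in beta cells, averaged 33.8 ± 1.5 RPKM in S487D and 31.7 ± 0.84 RPKM in S487A, and Crtc3 2.65 ± 0.50 RPKM in S487D and 2.78 ± 0.34 RPKM in S487A. The acetyltransferase genes Crebbp and Ep300 averaged 7.05 ± 0.32 and 13.5 ± 0.43 RPKM in S487D, and 6.69 ± 0.46 and 14.0 ± 0.81 RPKM in S487A. Of the kinases that restrain CRTC proteins, Sik1, itself a CREB target, stood at 2.84, 2.90 and 2.88 RPKM in S487D and at 1.02, 1.32 and 1.29 RPKM in S487A (log2 change 0.81, SE 0.090, limma adjusted p = 7.86e-05). These values rest on 72 to 77 reads in S487D and 27 to 38 reads in S487A, and the groups stood apart. The row LOC102550542 on the other strand, which shares 56 bases of span with Sik1, also stood higher, at 2.09 ± 0.27 RPKM in S487D and 0.945 ± 0.14 RPKM in S487A. Sik2 went the other way, with 4.80, 4.62 and 5.001 RPKM in S487D and 5.60, 6.62 and 6.05 RPKM in S487A, a 1.22-fold fall. Quantile normalization removed its call (adjusted p 0.0664, the highest of 15 alternatives, with 0.00113 the lowest).

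The large rises lay among neighbours that did not shift with them, whereas Atf1 and Pkib, 2 of the 3 large falls, lay among lowered neighbours. The 5 genes called higher at 1.5-fold or more had neighbour medians between -0.03 and 0.01. Pde3b, on chromosome 1, fell by 0.62 among neighbours with a median of -0.08. Adcy6 also lay among lowered neighbours. Without the 4 members in such regions (Rapgef3 is the other) 11 genes were called higher and 9 lower of 38 tested. These are 28.95% and 23.68%, against 20.1% and 24.3% of all genes tested, a background that still includes such regions. The regions were marked for lowered genes in these same samples, so a loss of lower calls follows from the choice. Pde1b, near the end of chromosome 7, lay outside the regions as marked and was kept. What lowers those regions was not tested.

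**Figure D4:**
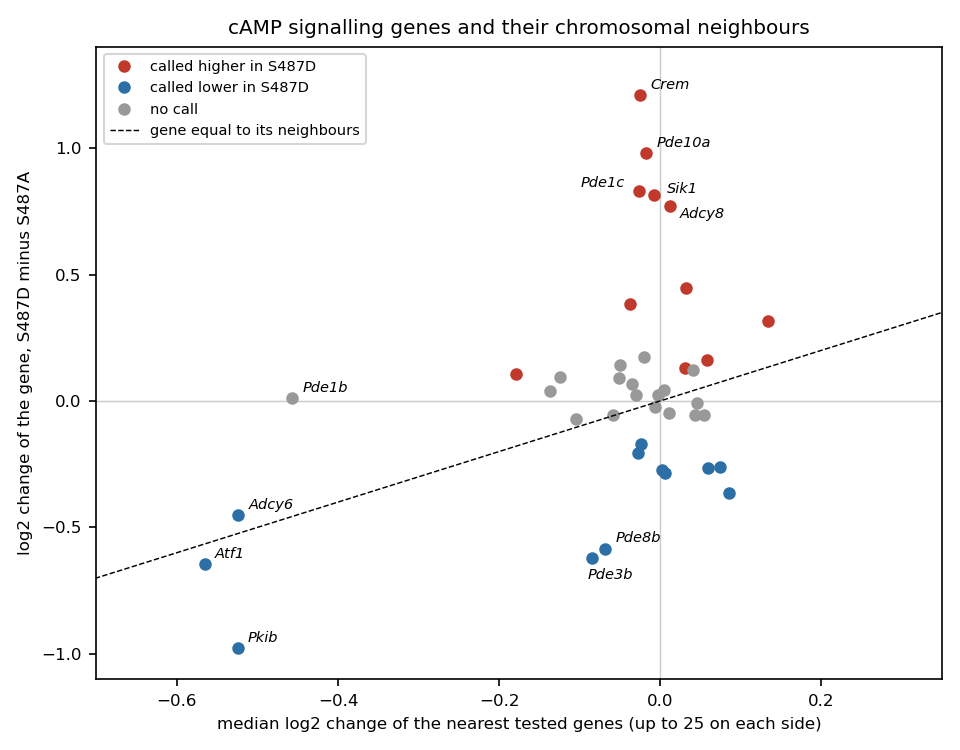
Log2 change of each tested gene (vertical axis) against the median log2 change of its nearest tested neighbours on the same chromosome (horizontal axis); the dashed line marks equality, red marks genes called higher in S487D, blue those called lower and grey those without a call. Crem, Pde10a, Pde1c, Sik1 and Adcy8 stand high above neighbours near 0, while Adcy6, Atf1 and Pkib lie among neighbours near -0.52 to -0.57.

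Other genes of the pathway, outside the 49, were called in both directions, with more calls lower than higher in every fit except median centring. Of 55 listed, 54 were found by symbol and 40 tested, of which 7 were higher, 13 lower and 20 without a call (17.5% higher against a background of 20.1%, and 32.5% lower against 24.3%; median log2 change -0.07). Median centring gave 10 higher and 9 lower, and no filter on low values 8 higher and 9 lower. Pde5a, a cGMP phosphodiesterase gene and 1 of the 13 called lower, passed the filter through S487A alone, and 7 higher and 12 lower of 39 remain without it. Abcc4, an exporter of cyclic AMP, averaged 11.2 ± 0.17 RPKM in S487D and 6.57 ± 0.16 RPKM in S487A, and Rgs2, a CREB-responsive regulator of G proteins, 5.36 ± 0.75 RPKM in S487D and 2.44 ± 0.53 RPKM in S487A. Arrb2, a beta-arrestin gene, and Creb3, a transmembrane factor of the endoplasmic reticulum, also rose, by 1.22-fold and 1.16-fold. The falls included Rap1a, an EPAC effector gene, and its GTPase activator. Rap1a averaged 36.5 ± 2.3 RPKM in S487D and 53.9 ± 2.1 RPKM in S487A, and Rap1gap, which switches Rap1 off, 83.6 ± 0.58 RPKM in S487D and 114 ± 3.9 RPKM in S487A. Gnb4, a G protein beta subunit gene, averaged 1.82 ± 0.52 RPKM in S487D and 5.03 ± 0.66 RPKM in S487A. It fell 2.15-fold on the log2(RPKM + 1) scale, and Hcn4, a cyclic nucleotide-gated channel gene, fell 1.35-fold.

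CREB target genes outside the 49 were called higher more often than lower. Of 30 listed, 21 were tested, with 11 higher, 3 lower and 7 without a call (52.4% higher against a background of 20.1%, and 14.3% lower against 24.3%; median log2 change 0.25). Gem, a small GTPase gene that limits calcium channels, averaged 6.69 ± 0.51 RPKM in S487D and 3.28 ± 0.33 RPKM in S487A. Irs2, the insulin receptor substrate gene that CREB drives in mouse beta cells, and the helix-loop-helix genes Id3 and Id1 rose 1.34-fold, 1.22-fold and 1.30-fold. Bdnf (a growth factor gene), Ccna2 (cyclin A2) and Atf3 (a stress-induced factor gene) fell. Nr4a1 (an orphan nuclear receptor gene, called higher) passed the filter through S487D alone and Bdnf through S487A alone, so these calls are no support, and 10 higher and 2 lower of 19 remain without both. Ccna2 averaged 35.5 ± 1.1 RPKM in S487D and 50.7 ± 3.3 RPKM in S487A. An earlier list of CREB targets on these samples already showed this direction, so the count is no independent support for it.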

How the data were processed

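Messenger RNA of 6 INS-1 samples was sequenced, 3 labelled S487D and 3 labelled S487A, with a TruSeq RNA kit, per the labels' protocols; this kit does not mark strand. Per the submitters' processing notes, the tools were bcl2fastq 2.17, cutadapt and TopHat2 2.0.13, and the build rn6. The sources used here do not name the read counter, annotation or filters. The authors deposited RPKM per gene and library, with position, strand and gene length. Multiplied by gene length, these gave whole reads (tolerance 0.05 of a read, checked up to 2000 reads), from which reads per gene were worked out. A floor of 3 reads in a gene of 1 kb is 0.276 to 0.318 RPKM.

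Groups and replicate numbers came from sample titles. Testing used limma 3.58.1 in R 4.3.3 (log2(RPKM + 1), intensity trend, group term alone, two-sided) for genes reaching 1 RPKM in 3 or more libraries, with p-values adjusted after Benjamini-Hochberg over the 12527 genes tested. The smallest two-sided p an exact permutation test allows here is 0.1, so none is given. The fit was tested on simulated data. Neighbours were the 25 nearest tested genes on each side. Tables and figures used Python 3.11.15, pandas 2.3.3 and matplotlib 3.10.9.

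The members, gene lists and shares were chosen with earlier results of these data known. Values in every library are given for called members, full statistics for those at 1.5-fold or more and Creb1. From each other list, up to 4 called genes in each direction with the smallest p are named, and other names were chosen after their values were seen. Alternatives were pseudocounts of 0.1 and 0.01, no filter or 5 RPKM, quantile normalization, median centring, no trend, limma voom on worked-out reads, a replicate block, members in shifted regions left out, and each library left out.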

Additional observations from a re-analysis of the deposited data

How the results depend on the processing

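Over 15 alternative fits, the members called ranged from 8 to 14 higher and from 9 to 12 lower, against 11 and 12 as reported. Of the 23 calls, 17 kept call and direction wherever the gene was tested, and 6 lost the call at least once (Gnas, Prkar1a, Prkar1b, Prkar2b, Akap11 and Sik2). Of the 18 members without a call, 4 gained one in at least 1 alternative (Gnai1, Adcy5, Akap13 and Crtc2). Leaving out 1 library gave 9 to 11 higher and 11 to 12 lower. Same-numbered libraries of the groups did not deviate together (correlations of 0.00, -0.06 and 0.01 across genes). This gives no sign of pairing by number, and whether libraries shared a culture or preparation was not tested. With the replicate block, 10 members were called higher and 12 lower, and 19 other pathway genes and 13 CREB targets were called. Over all fits these lists ranged from 16 to 23 and from 11 to 15 calls, against 20 and 14 as reported. The median log2 change of the members ranged from -0.0077 (without S487D replicate 1) to 0.0817 (median centring).

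Signs turned where changes were near 0. With median centring, log2 changes were 0.0033 for Gnai3, 0.0516 for Prkaca, 0.0347 for Creb1, 0.00091 for Crtc1, 0.0037 for Crtc3 and 0.0089 for Ep300. With quantile normalization they were -0.0164 for Prkar1a, 0.0542 for Rapgef4, 0.0951 for Creb1, 0.0599 for Crtc3 and 0.0203 for Ep300. With voom, Prkaca had 0.0079. Leaving out 1 library gave ranges of -0.0261 to 0.0155 for Prkaca, -0.0560 to 0.0363 for Creb1, -0.161 to 0.0271 for Crtc3, -0.0585 to 0.0919 for Pde1b, -0.0385 to 0.0596 for Pde4d, -0.0457 to 0.0769 for Pde7b, and -0.395 to 0.374 percentage points for the difference in the Pde4 share. Set against its neighbours, Adcy6 stood at 0.0711. The cause was not tested. Depth limits genes under about 1 RPKM, where a few reads decide a value.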
